A study of Mus musculus with 24 samples.

Results

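The genes described here encode the enzymes that make prostaglandins and leukotrienes, and the enzyme that breaks prostaglandins down. They were 10 genes of 15878 with values, chosen by symbol: Pla2g4a, Ptgs1, Ptgs2, Hpgds, Tbxas1, Hpgd, Alox5, Alox5ap, Ltc4s and Lta4h. RNA was measured in microglia, the macrophages that reside in brain tissue, which were sorted from wild-type (WT) mouse brain by flow cytometry on day 28 and amplified by Smart-seq2, a method for small amounts of RNA. There were 4 groups of 6 libraries. The WD-Exos and ND-Exos groups were BCAS mice given 100 µg of the exosomes so named into the tail vein every 3 days, the BCAS group had the same operation with phosphate-buffered saline (PBS), and the Sham group had a sham operation with PBS. BCAS commonly stands for bilateral carotid artery stenosis, a procedure that narrows the neck arteries and lowers blood flow to the forebrain. The series' title ties the exosomes, small vesicles released by cells, to foam cells, macrophages filled with lipid, and to microglial metabolism in injured white matter. Whether each sample came from its own mouse is not stated, so a p-value here reflects the scatter among samples, part of which may be technical.

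Prostaglandins and leukotrienes are short-lived lipid signals made from arachidonic acid, a fatty acid stored in membranes. A phospholipase frees it, the cyclooxygenases turn it into a prostaglandin precursor that terminal synthases finish, and 5-lipoxygenase, with its activating protein, turns it into a leukotriene precursor. Microglia are known as a main site of the constitutive cyclooxygenase and of hematopoietic prostaglandin D synthase in the brain, whereas the inducible cyclooxygenase is classed as an immediate early gene.

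By CPM, the contrast between both cyclooxygenase genes was the widest among these 10 genes. Their promoters are printed, that of the abundant Ptgs1 and that of Ptgs2, which was almost without counts. The third promoter printed is that of Hpgds, which is not part of that contrast and came next to Ptgs1 by CPM. Each sequence runs 5′ to 3′ on the gene's strand, from 250 bases before to 50 after the RefSeq gene start in GRCm38.p6. They lie at chr2:36230176-36230475 (plus strand) for Ptgs1, chr6:65144681-65144980 (minus strand) for Hpgds and chr1:150099781-150100080 (plus strand) for Ptgs2. Capitals mark the PU.1 box GAGGAAGT in Ptgs1 and Hpgds. In Ptgs2 they mark the C/EBP palindrome TTGCGCAA and a run in which the cyclic AMP response core ACGTCA overlaps the E-box CACGTG.
Ptgs1: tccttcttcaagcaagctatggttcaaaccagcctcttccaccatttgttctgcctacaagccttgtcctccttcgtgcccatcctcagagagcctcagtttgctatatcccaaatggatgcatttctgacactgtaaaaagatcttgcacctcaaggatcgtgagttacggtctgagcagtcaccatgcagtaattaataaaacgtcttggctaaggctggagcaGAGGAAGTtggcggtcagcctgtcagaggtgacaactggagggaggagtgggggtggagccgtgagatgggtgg
Hpgds: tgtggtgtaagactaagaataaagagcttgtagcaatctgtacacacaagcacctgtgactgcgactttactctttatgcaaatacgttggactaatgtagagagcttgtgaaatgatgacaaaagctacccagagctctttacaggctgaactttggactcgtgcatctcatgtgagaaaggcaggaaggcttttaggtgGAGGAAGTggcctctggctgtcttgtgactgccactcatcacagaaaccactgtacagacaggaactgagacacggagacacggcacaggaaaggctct
Ptgs2: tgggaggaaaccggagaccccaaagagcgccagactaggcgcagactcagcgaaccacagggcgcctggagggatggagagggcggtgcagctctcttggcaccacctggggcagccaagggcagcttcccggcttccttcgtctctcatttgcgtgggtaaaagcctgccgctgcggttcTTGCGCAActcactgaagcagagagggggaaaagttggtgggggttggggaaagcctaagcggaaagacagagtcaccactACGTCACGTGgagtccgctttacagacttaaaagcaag

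Promoters were found for 9 of the 10 genes, all but Alox5ap. Searched on both strands, the PU.1 box GAGGAAGT was in 2 of those 9, Ptgs1 and Hpgds, and in 3.2% of all 32851 promoters of the same length. PU.1 is a transcription factor of the macrophage lineage. The match began at position -24 from the gene start in the Ptgs1 promoter and at -49 in the Hpgds promoter. The promoters of Ltc4s and Hpgd had no match to this box. Both genes stood above Hpgds per length, at 397 and 319 against 187 CPM per kb of principal transcript. The C/EBP palindrome was in 0.183% of all promoters, the core ACGTCA in 7.51% and the E-box CACGTG in 7.15%, and among the 9 each was found in the Ptgs2 window alone. In Ptgs2 the palindrome began at -69, and the core and the E-box at 13 and 17, after the RefSeq gene start. Where transcription starts in these cells was not measured, so these positions hold for the annotated start only. Also searched, and not marked in capitals, were the TATA box TATAAA and the GC box GGGCGG. The TATA box was in Pla2g4a, Tbxas1 and Hpgd and in 13.6% of all promoters. The GC box was in Ptgs2, Alox5 and Hpgd and in 35.7%. A match is a run of letters and not a measured binding site.

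Library totals were 24277721 to 28892422 counts. Levels are given as CPM, counts scaled to the library total after adjustment by TMM. The 10 microglial marker genes summed to 47165 to 61503 CPM in WD-Exos, 32937 to 57869 in ND-Exos, 43661 to 60432 in BCAS and 41475 to 50481 in Sham. Defining markers of platelets, mast cells and neutrophils, which also make these lipids, were at or near 0. The platelet genes Ppbp and Itga2b reached at most 0 and 0.0373 CPM in any library, the mast cell gene Kit 0.037 CPM, and the neutrophil genes S100a8, S100a9 and Cxcr2 0.832, 0.067 and 1.19 CPM. Only Kit of the 7 mast cell and basophil genes and 5 of the 11 neutrophil genes had values. Among the 6 platelet genes Treml1 reached 5.54 CPM in 1 ND-Exos library and had no counts in the others, and Gp9, a platelet glycoprotein gene, was present in every library, with medians of 50.2 CPM in WD-Exos, 53.6 in ND-Exos, 62.6 in BCAS and 48.1 in Sham. Border macrophages, the macrophages of the brain's coverings and vessels, were not at 0: their 9 marker genes summed to a median of 199 CPM in WD-Exos (range 137 to 321), 392 in ND-Exos (234 to 875), 374 in BCAS (73.8 to 581) and 367 in Sham (282 to 1480). Of these, the mannose receptor gene Mrc1 had medians of 26.8 CPM in WD-Exos, 59.7 in ND-Exos, 22.1 in BCAS and 53.1 in Sham. Their part in the results was not tested. In ND-Exos replicate 3 the microglial marker sum was the lowest of the 24 libraries, the oligodendrocyte marker sum was 3868 CPM against a median of 227 CPM in its group, and 4 of the 9 detected genes, Ptgs1, Hpgds, Hpgd and Alox5ap, had their lowest level of all. The results that rest on this library are therefore also given without it. That choice rests in part on the levels of these genes themselves. Sham replicate 4 and WD-Exos replicate 6 had higher oligodendrocyte sums, 6865 and 4748 CPM, with microglial sums of 47228 and 52094 CPM. In Sham replicate 4, Alox5ap and Ltc4s were the lowest of the group and Alox5 the highest. In WD-Exos replicate 6, Hpgd was the lowest of the group and Ptgs1 and Lta4h the highest. These 2 libraries were left out only where each library was left out in turn.

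Microglia in all 4 groups carried RNA for nearly the whole route, with 9 of the 10 genes in every library. Per length, which allows levels of different genes to be compared, the order over the 24 libraries was Alox5ap at 483 CPM per kb of its principal transcript, Ptgs1 at 439, Ltc4s at 397, Hpgd at 319, Hpgds at 187, Tbxas1 at 138, Lta4h at 35.1, Pla2g4a at 32.6 and Alox5 at 31.1. The activating protein of the leukotriene branch thus had the highest level, and the lipoxygenase itself was among the 3 lowest, whose order depends on the length used. By level without length correction, Ptgs1 ranked at place 79 of the 15878 genes. Transcript lengths are from GENCODE M21. With all annotated exons as the length, Hpgd at 319 CPM per kb stood above Ltc4s at 254. Tbxas1 kept its place, at 30.1 CPM per kb below Hpgds at 101. The 3 lowest were then Alox5 at 21.4, Pla2g4a at 14.6 and Lta4h at 11.7. The order of Ltc4s and Hpgd, and that of the 3 lowest, therefore depends on which transcripts are made. Exons of Ptgs1, Tbxas1, Alox5ap and Ltc4s overlap a gene model on the opposite strand in GENCODE M21, and since use of strand in the counting is not stated, reads of those models cannot be told apart from theirs.

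**Figure D1:**
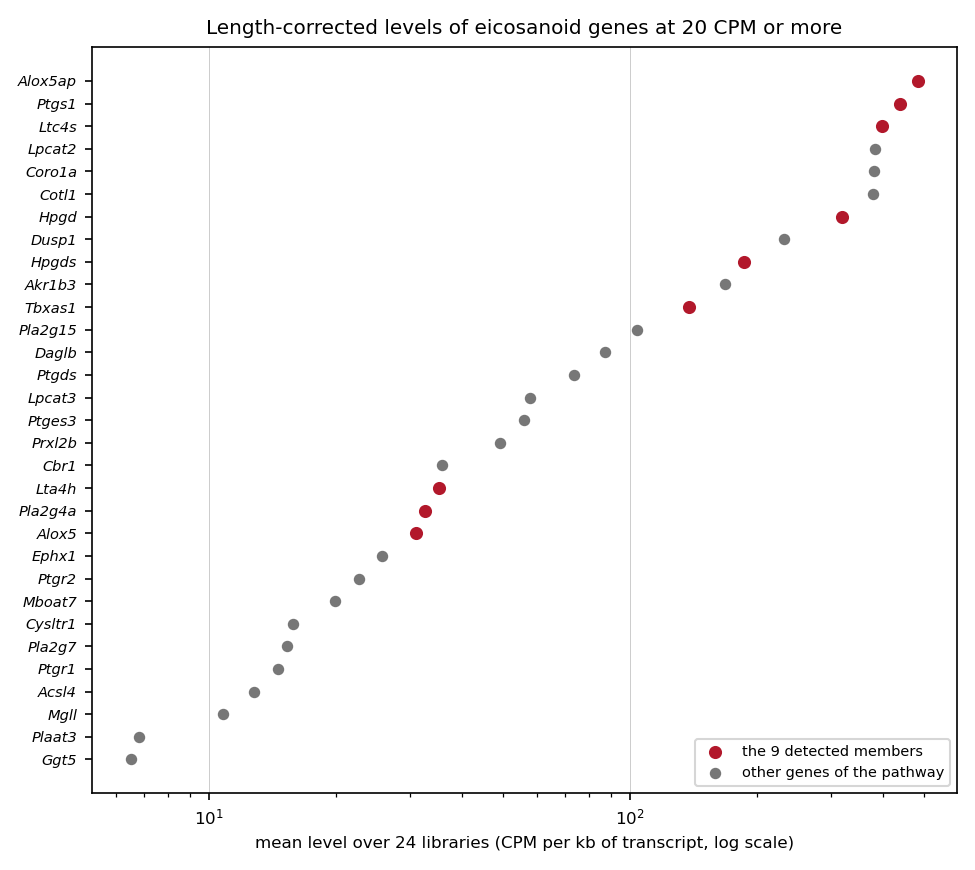
Mean level over the 24 libraries per kb of principal transcript (CPM per kb, log axis) of the eicosanoid genes with a mean of 20 CPM or more; red points are the 9 detected synthesis and breakdown genes and grey points are other genes of the pathway. Alox5ap, Ptgs1 and Ltc4s lead the plot, while Lta4h, Pla2g4a and Alox5 lie more than 10-fold below Alox5ap.

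No gene of the 10 passed the adjusted threshold in any comparison. In the test of equality of the 4 groups (edgeR quasi-likelihood F test, Benjamini-Hochberg adjusted p under 0.05 over 10219 genes), 0 of the 9 tested genes were called, against 0.0294% of all genes, and 0 of the 9 had an unadjusted p under 0.05, against 6.33%. DESeq2 and limma voom also called 0 of the 9, while over all genes they called 163 and 58. Hpgds had the smallest p of the 9 (adjusted p = 0.856). Without ND-Exos replicate 3 its adjusted p was 0.307, in a range over all alternatives of 0.199 to 1. In none of the 6 comparisons between pairs of groups did the ranges of the 6 and 6 libraries stand apart for any of the 9 genes. Over all tested genes they stood apart for 0.372% in BCAS against Sham, 0.186% in ND-Exos against BCAS and also 0.186% in WD-Exos against BCAS. The share was 0.519% in WD-Exos against ND-Exos, 1.14% in ND-Exos against Sham and 1.04% in WD-Exos against Sham. Without ND-Exos replicate 3, a setting added after the data were seen, the ranges stood apart for 1 of the 9 genes, Ltc4s, in WD-Exos against ND-Exos, against 0.93% of all genes. They did so for 0 of the 9 in ND-Exos against BCAS, against 0.401%, and for 0 of the 9 in ND-Exos against Sham, against 1.98%. In bulk RNA, fewer cells of a type and less RNA per cell cannot be told apart.

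**Figure D2:**
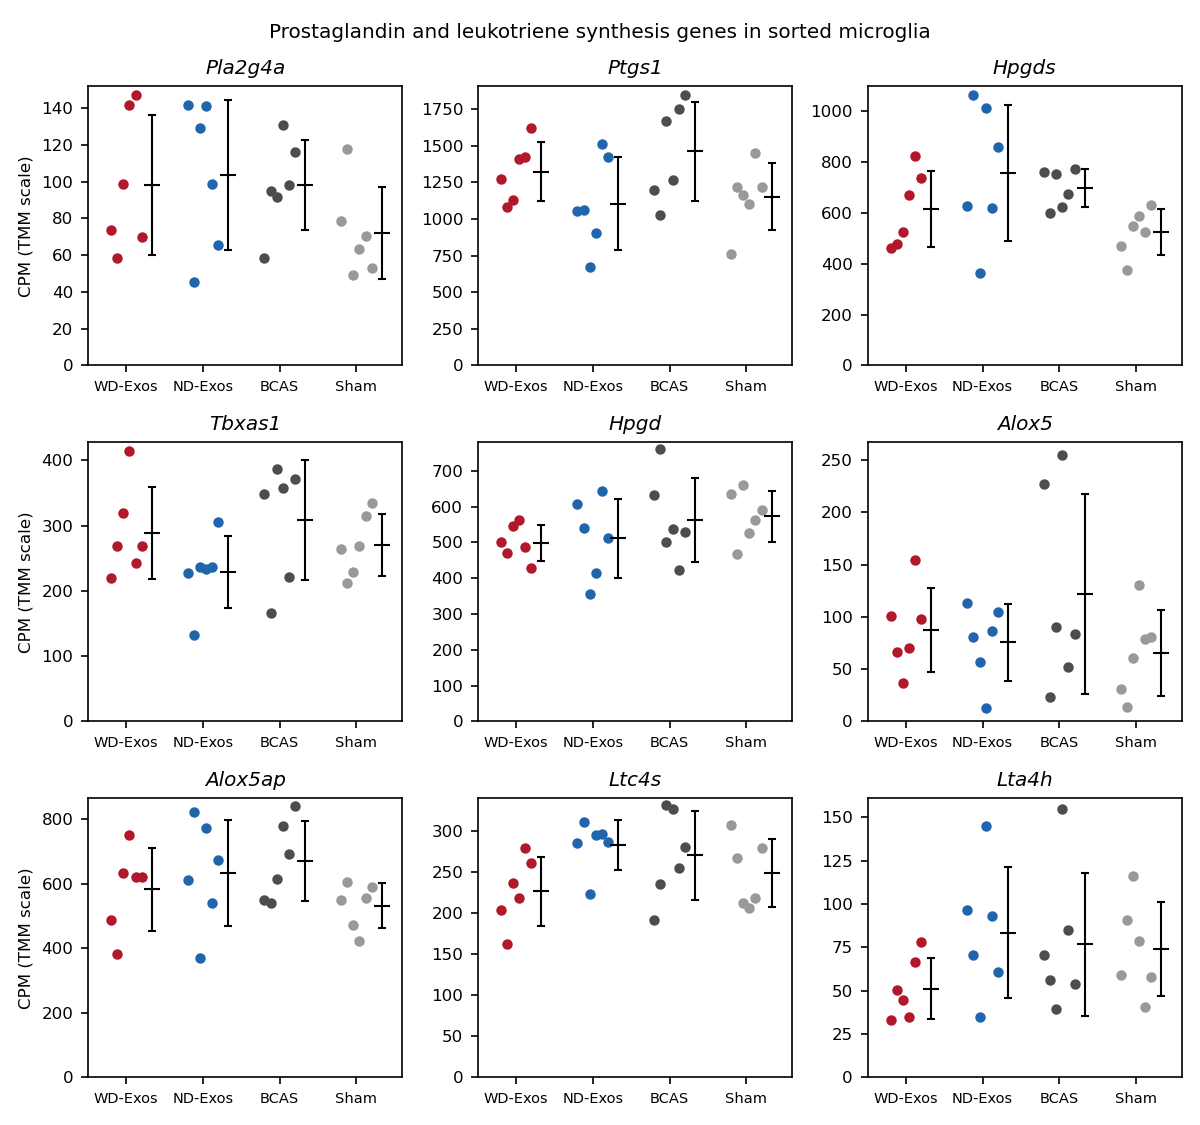
Level of the 9 detected genes in each library (CPM, linear axes from 0); each point is 1 library, with 6 per group, and the line with its bar is the mean ± SD of the group. The groups overlap for every gene, in Ltc4s between WD-Exos and ND-Exos only through the ND-Exos library at 224 CPM, and Alox5 shows the widest spread, from 12.5 to 255 CPM.

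Pla2g4a encodes the cytosolic phospholipase that frees arachidonic acid from membranes. Its lowest, median and highest CPM were 58.7, 86.1 and 147 in WD-Exos, 45.2, 114 and 142 in ND-Exos, 58.3, 96.5 and 131 in BCAS, and 49.1, 66.8 and 118 in Sham. Sham had the lowest median, and 1 Sham library, replicate 2, reached into the upper range of the other groups. BCAS exceeded Sham by 0.45 on the log2 scale (SE 0.30, adjusted p = 1), with a 95% interval of 0.885- to 2.1-fold. The difference of WD-Exos from BCAS was 0.00 (interval 0.65- to 1.54-fold) and that of ND-Exos from BCAS 0.07 (0.684- to 1.62-fold).

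Ptgs1, the gene of the constitutive cyclooxygenase, was the most abundant of the 10 by CPM. Its lowest, median and highest levels were 1080, 1344 and 1621 CPM in WD-Exos, 672, 1057 and 1509 in ND-Exos, 1028, 1467 and 1849 in BCAS, and 758, 1190 and 1453 in Sham. In BCAS, 3 of 6 libraries stood above every Sham library and none below every one, while in ND-Exos 2 of 6 stood below every BCAS library and none above; all ranges overlapped. Means were 1323 ± 203 CPM in WD-Exos, 1105 ± 316 in ND-Exos, 1461 ± 338 in BCAS and 1152 ± 227 in Sham (SD, n = 6 each).

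ND-Exos against BCAS gave Ptgs1 a log2 fold change of -0.40 (SE 0.18, interval 0.584- to 0.979-fold) and an adjusted p of 0.975 in edgeR's quasi-likelihood test. The difference was -0.28 without ND-Exos replicate 3 (adjusted p = 1). The BCAS difference from Sham was 0.34 (SE 0.18, adjusted p = 0.955). These 2 comparisons share the BCAS libraries, so they are not independent of each other. WD-Exos lay between both, 0.906-fold of BCAS (interval 0.7 to 1.17).

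Ptgs2, the gene of the inducible cyclooxygenase, had 2 counts in all 24 libraries together, 1 in ND-Exos replicate 2 and 1 in WD-Exos replicate 6, and none in BCAS or Sham. Ptgs1 had 799251 counts in the same libraries. Ptgs2 did not pass the filter on low counts and was not tested. A count of 0 over the 6 libraries of a group allows up to 0.0189 CPM in BCAS and 0.0187 CPM in Sham (3 counts, counting error only, since amplified reads were not tagged by molecule).

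Other immediate early genes were present in the same RNA. The summed level of 16 immediate early and handling response genes ran from 1918 to 25307 CPM in WD-Exos, 3732 to 7168 in ND-Exos, 914 to 20184 in BCAS and 734 to 3459 in Sham. In WD-Exos replicate 2, the highest, Fos stood at 4884 CPM and Ptgs2 had 0 counts. BCAS replicate 2 and Sham replicate 6 had the highest sums of their groups and 0 counts of Ptgs2 as well. Of the 2 libraries with a count of Ptgs2, ND-Exos replicate 2 had the highest sum of its group, 7168 CPM, and WD-Exos replicate 6 the lowest of its group, 1918 CPM. The Ptgs2 promoter printed above is the one with the C/EBP, cyclic AMP response and E-box letters.

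Hpgds makes prostaglandin D from the cyclooxygenase product and, of the 9 tested genes, came nearest to a difference between groups. Its lowest, median and highest levels were 462, 597 and 823 CPM in WD-Exos, 365, 744 and 1064 in ND-Exos, 601, 715 and 773 in BCAS, and 377, 536 and 632 in Sham. All 6 BCAS libraries lay above the Sham median and 4 of 6 above every Sham library. In ND-Exos, 3 of 6 lay above every Sham library and 1, replicate 3, below every one.

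The log2 difference of BCAS from Sham in Hpgds was 0.42 (SE 0.20, interval 1- to 1.77-fold), with an adjusted p of 0.8. It was the only one of the 9 genes with an unadjusted p under 0.05 there, against 6.04% of all genes, and 0 of the 9 were called after adjustment, against 0% of all genes. ND-Exos against Sham gave Hpgds 0.53 (SE 0.20, interval 1.09- to 1.92-fold, adjusted p = 0.397). In that comparison also 1 of the 9 had an unadjusted p under 0.05, against 6.66% of all genes, and 0 passed adjustment, against 0.108%. Without ND-Exos replicate 3, the lowest ND-Exos library for Hpgds, the difference had to grow, and it was 0.68. Its adjusted p of 0.128 was the smallest that any of the 9 genes reached in any comparison and setting. The highest adjusted p of this difference over the alternatives was 0.717. Both comparisons share the Sham libraries. P2ry12, a microglial receptor gene, had medians of 4581 CPM in WD-Exos, 6577 in ND-Exos, 5511 in BCAS and 3759 in Sham. That is the order of the Hpgds medians. P2ry12 was among the genes that went most closely with Hpgds over these libraries, so a like order was partly built in. The summed microglial markers had another order, with medians of 53567 CPM in WD-Exos, 51192 in ND-Exos, 54089 in BCAS and 47217 in Sham. The part of P2ry12 and of these markers in the Hpgds values was not tested.

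Tbxas1 makes thromboxane from the same precursor. Lowest, median and highest were 219, 268 and 414 CPM in WD-Exos, 133, 235 and 305 in ND-Exos, 166, 353 and 386 in BCAS, and 212, 266 and 334 in Sham. BCAS split widely, with 4 of 6 libraries above every Sham library and 1, replicate 2, below every one. None of the ND-Exos libraries reached the BCAS median. The log2 difference of ND-Exos from BCAS was -0.43 (SE 0.21, adjusted p = 1), and that of WD-Exos from ND-Exos was 0.34 (SE 0.21, adjusted p = 1).

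Within each library, the balance of both synthases varied most with ND-Exos. The ratio of Hpgds to Tbxas1 per length had a lowest, median and highest value of 0.926, 1.11 and 1.94 in WD-Exos, 0.885, 1.6 and 4.58 in ND-Exos, 0.999, 1.22 and 2.08 in BCAS, and 0.953, 1.05 and 1.37 in Sham. ND-Exos replicate 2, at the top of that range, had the highest Hpgds and the lowest Tbxas1 of the 24 libraries. The ratios overlapped between all groups. They use principal transcripts, and another choice of length would scale all of them alike. Over the 24 libraries, Hpgds and Tbxas1 stood at 187 and 138 CPM per kb by principal transcript and at 101 and 30.1 by all annotated exons.

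**Figure D3:**
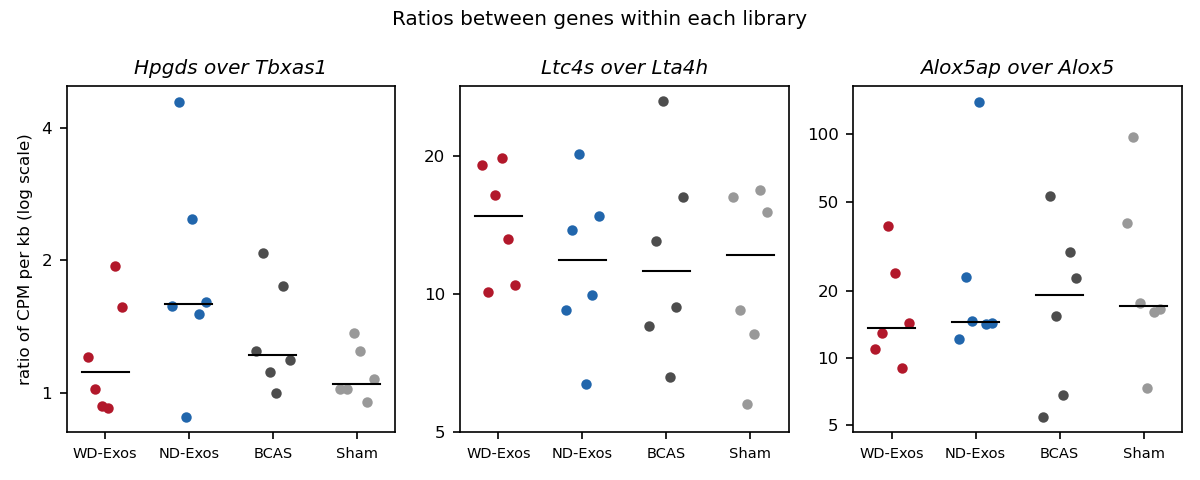
Ratios of length-corrected levels (CPM per kb over CPM per kb, log axes) within each library; each point is 1 library and the line is the median of 6. Hpgds over Tbxas1 reaches 4.58 in 1 ND-Exos library, Ltc4s lies at 5.76 to 26.4 times Lta4h, and Alox5ap over Alox5 runs from 5.47 to 140.

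Hpgd, the dehydrogenase that inactivates prostaglandins, was among the steadiest of the 9 genes. It stood at 499 ± 49.4 CPM in WD-Exos (range 427 to 561), 512 ± 110 in ND-Exos (357 to 642), 563 ± 118 in BCAS (422 to 760) and 573 ± 71.2 in Sham (467 to 660; SD, n = 6 each). The groups overlapped. Its highest library exceeded its lowest 2.13-fold. Its biological coefficient of variation in edgeR was 24.3%, and 85% of the 401 genes within 2-fold of its level had a higher one. The 95% intervals of the fold change were 0.793 to 1.22 for BCAS against Sham, 0.733 to 1.13 for ND-Exos against BCAS and 0.715 to 1.1 for WD-Exos against BCAS.

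Alox5 encodes 5-lipoxygenase, the enzyme that begins leukotriene synthesis, and varied most. Lowest, median and highest levels were 36.7, 84.3 and 154 CPM in WD-Exos, 12.5, 83.4 and 113 in ND-Exos, 23.1, 86.7 and 255 in BCAS, and 14, 69.4 and 130 in Sham. Its 24 libraries spanned 20.5-fold, with low libraries in ND-Exos, BCAS and Sham alike. The coefficient of variation was 64.3%, and 18.4% of the 2173 genes at like level had a higher one.

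The group means of Alox5 were 87.8 ± 40.2 CPM in WD-Exos, 75.8 ± 36.8 in ND-Exos, 122 ± 95.8 in BCAS and 65.6 ± 41 in Sham (SD, n = 6 each). BCAS differed from Sham by 0.89 on the log2 scale (SE 0.53, adjusted p = 1), with an interval from 0.869- to 3.96-fold. Without BCAS replicate 4, the library at 255 CPM, the difference was 0.53 (adjusted p = 1). The intervals against BCAS ran from 0.339- to 1.53-fold for WD-Exos and from 0.292- to 1.33-fold for ND-Exos.

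Alox5ap, the activating protein that presents arachidonic acid to 5-lipoxygenase, had the highest level per length. Lowest, median and highest levels were 382, 620 and 750 CPM in WD-Exos, 370, 642 and 823 in ND-Exos, 539, 654 and 842 in BCAS, and 422, 552 and 605 in Sham. In each of the 3 BCAS-operated groups 4 of 6 libraries lay above every Sham library, and in both exosome groups 1 lay below. The log2 difference of BCAS from Sham was 0.33 (SE 0.18, adjusted p = 0.962). The ratio of Alox5ap to Alox5 per length ranged from 5.47 to 140 over the 24 libraries, with medians of 13.6 in WD-Exos, 14.5 in ND-Exos, 19.1 in BCAS and 17.1 in Sham.

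Leukotriene synthesis then divides, with Ltc4s joining glutathione to the precursor to form the cysteinyl leukotrienes and Lta4h hydrolysing it to the chemoattractant leukotriene B. Ltc4s had a lowest, median and highest level of 162, 228 and 279 CPM in WD-Exos, 224, 292 and 311 in ND-Exos, 192, 268 and 332 in BCAS, and 207, 243 and 308 in Sham. WD-Exos was lowest by median, and 3 of its 6 libraries lay below every ND-Exos library. The overlap rests on ND-Exos replicate 3, the library at 224 CPM. The other 5 ND-Exos libraries ran from 286 to 311 CPM, and all 6 WD-Exos libraries, with 279 CPM as the highest, lay below them. Since replicate 3 was the lowest ND-Exos library for Ltc4s, leaving it out could only move the range of ND-Exos away from that of WD-Exos. Of 868 genes at like level, 95.3% had a higher coefficient of variation than the 25.7% of Ltc4s.

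Lta4h stood at 33.3, 47.5 and 78 CPM (lowest, median and highest) in WD-Exos, 34.6, 81.8 and 145 in ND-Exos, 39.3, 63.4 and 155 in BCAS, and 40.6, 69 and 116 in Sham. Here too the WD-Exos group had the lowest median, and none of its libraries reached the ND-Exos median. The ranges of Lta4h overlapped between all groups.

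WD-Exos against ND-Exos compares both kinds of exosome in operated mice. Lta4h differed by -0.70 on the log2 scale (SE 0.36, interval 0.369- to 1.02-fold, adjusted p = 1) and Ltc4s by -0.32 (SE 0.16, interval 0.636- to 1.01-fold, adjusted p = 0.999). ND-Exos replicate 3 was the lowest ND-Exos library for both genes, so the differences had to grow without it. They were then -0.85 (adjusted p = 0.552) for Lta4h and -0.37 (adjusted p = 0.613) for Ltc4s. Leaving out each library in turn gave -0.85 to -0.46 for Lta4h, the smallest difference without ND-Exos replicate 4, and -0.38 to -0.24 for Ltc4s, the smallest without WD-Exos replicate 2. With all libraries, 0 of the 9 genes were called in this comparison, against 0.0196% of all genes, and 0 had an unadjusted p under 0.05, against 5.33%. The ratio of Ltc4s to Lta4h per length was above 1 in every library, from 5.76 to 26.4, with medians of 14.8 in WD-Exos, 11.9 in ND-Exos, 11.3 in BCAS and 12.2 in Sham.

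Seen by comparison, BCAS against Sham had 8 of the 9 tested genes higher and Hpgd lower. The median log2 fold change of the 9 was 0.33, against a median of -0.00 over all 10219 genes, of which 49.9% were higher. None passed the adjusted threshold, and 2 of the 8, Lta4h and Ltc4s, changed sign when the model allowed for how many genes each library detected, at -0.13 and -0.06. The summed microglial markers were also higher, with a median of 54089 CPM in BCAS and 47217 in Sham, and their part in these values was not tested. BCAS replicate 2 had the lowest level of its group for 5 of the 9 genes, Ptgs1, Hpgds, Tbxas1, Alox5 and Alox5ap, and the highest Hpgd of all libraries. Its microglial marker sum, 43661 CPM, was the lowest of its group and its immediate early sum, 20184 CPM, the highest; their part in its values was not tested. Without it, Ptgs1 stood 0.43 above Sham (adjusted p = 0.438), Hpgds 0.46 (adjusted p = 0.516) and Tbxas1 0.32 (adjusted p = 0.928), against 0.19 with all libraries. Alox5ap stood 0.39 above Sham (adjusted p = 0.547) and Alox5 1.11 (adjusted p = 0.561). Leaving out the lowest library of a group raises the mean of the rest, so larger differences for these 5 genes had to follow. Of the remaining genes, the differences from Sham without BCAS replicate 2 were -0.13 for Hpgd, 0.14 for Lta4h, 0.16 for Ltc4s and 0.47 for Pla2g4a.

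ND-Exos against BCAS had 4 of the 9 genes higher and 5 lower, where 50.4% of all genes were higher. The median of the 9 was -0.08, against 0.01 over all genes. Of the 9, 0 were called, against 0.0196% of all genes, and 1, Ptgs1, had an unadjusted p under 0.05, against 4.47%. WD-Exos against BCAS had 8 of the 9 lower, where 48.9% of all genes were higher. The median of the 9 was -0.18, against -0.02 over all genes. None of the 9 was called, against 0% of all genes, and 0 had an unadjusted p under 0.05, against 3.71%. The other gene, Pla2g4a, was at 0.00 and had no direction to count: with 1 library left out it ran from -0.14 to 0.11. Of the 8 lower genes Lta4h differed by -0.58 (SE 0.36, adjusted p = 1), but by -0.25 without BCAS replicate 4, the library with the highest Lta4h. Both comparisons are set against the same BCAS libraries, and the 9 genes were read from the same libraries, so their directions are not independent. When the model allowed for how many genes each library detected, 3 of the 8, Ptgs1, Tbxas1 and Alox5ap, were at 0.09, 0.02 and 0.05.

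Against Sham, the WD-Exos group had 6 of the 9 genes higher and 3 lower (median 0.13), where 50.5% of all genes were higher. Of the 9, 0 were called, against 0% of all genes, and 0 had an unadjusted p under 0.05, against 5.39%. In ND-Exos also 6 were higher and 3 lower than in Sham (median 0.19), where 50% of all genes were higher. The 95% interval of WD-Exos against Sham was narrowest for Hpgd, 0.702- to 1.08-fold, and widest for Alox5, 0.629- to 2.84-fold.

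**Figure D4:**
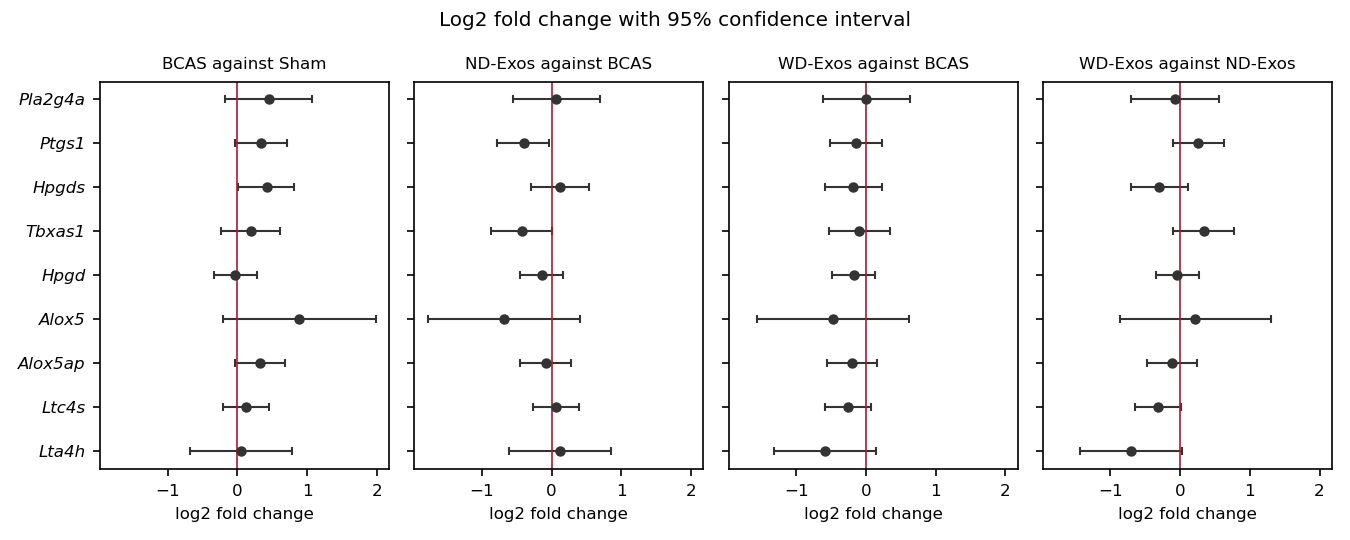
Log2 fold change of the 9 tested genes in 4 comparisons, with the first-named group over the second; points are edgeR estimates from 6 against 6 libraries and bars are 95% confidence intervals. The bars cross 0 except for Hpgds in BCAS against Sham and Ptgs1 in ND-Exos against BCAS, those of Alox5 are the widest, and those of Hpgd and Ltc4s the narrowest.

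The rest of the pathway was read from 59 other genes, of which 50 had values and 32 were tested. In no pairwise comparison, nor over the 4 groups, did any pass the adjusted threshold in edgeR, and at most 3 of the 32 had an unadjusted p under 0.05. Those 3 were reached in ND-Exos against Sham, where 6.66% of all genes had one, and in WD-Exos against Sham, where 5.39% had one. By level the leading ones were Lpcat2, which reacylates lysophospholipids and makes platelet-activating factor, at a mean of 1072 CPM over the 24 libraries, and the actin-binding Coro1a at 666 CPM and Cotl1 at 606 CPM. They were followed by Dusp1, a phosphatase of mitogen-activated kinases, at 461 CPM, the diacylglycerol lipase gene Daglb at 405 CPM and the lysosomal phospholipase gene Pla2g15 at 282 CPM.

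Cotl1, whose human protein binds 5-lipoxygenase, had the smallest p of the 32 over the 4 groups (adjusted p = 0.209). Its lowest, median and highest levels were 547, 692 and 903 CPM in WD-Exos, 339, 376 and 601 in ND-Exos, 435, 516 and 1005 in BCAS, and 578, 746 and 827 in Sham. ND-Exos was the lowest group, and of its libraries only the highest reached the WD-Exos and Sham ranges. The log2 difference was 0.73 for WD-Exos against ND-Exos (SE 0.19, adjusted p = 0.299) and -0.76 for ND-Exos against Sham (SE 0.19, adjusted p = 0.105). With DESeq2 these 2 differences, 0.74 and -0.74, passed the threshold (adjusted p = 0.00981 and 0.0065), as did the 4-group test (adjusted p = 0.00664). With limma voom they did not (adjusted p = 0.133, 0.0578 and, over the 4 groups, 0.0851). Over all genes DESeq2 called 124 in WD-Exos against ND-Exos, 219 in ND-Exos against Sham and 163 over the 4 groups.

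Acsl4, which activates arachidonic acid for storage in membranes, averaged 68 ± 21.6 CPM in WD-Exos, 89.6 ± 37.5 in ND-Exos, 65.8 ± 23 in BCAS and 46.7 ± 14.3 in Sham (SD, n = 6 each). Its log2 difference of ND-Exos from Sham was 0.94 (SE 0.33, adjusted p = 0.353). Dusp1, which also counts among the immediate early genes above, ran from 36.8 to 1777 CPM in WD-Exos, 211 to 656 in ND-Exos, 19.9 to 1709 in BCAS and 24.2 to 370 in Sham. The difference of WD-Exos from Sham in Dusp1 was 2.82 (SE 1.06, adjusted p = 0.511), and with DESeq2 it was 2.86 (adjusted p = 0.0452). Over all genes DESeq2 called 172 in that comparison.

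Receptors for these lipids were sparse. Of 9 prostanoid receptor genes, 6 had values and 1, Ptger3, passed the filter, with counts in 7 of 24 libraries and a mean of 3.57 CPM. Of 6 leukotriene receptor genes 4 had values, and Ltb4r1, the high-affinity leukotriene B receptor, was listed at 0 in every library. Cysltr1, a receptor for the cysteinyl leukotrienes that Ltc4s begins, was the exception and was singled out after its values were seen. It was present in all 24 libraries, at 81.7 ± 20.1 CPM in WD-Exos, 87.1 ± 36.4 in ND-Exos, 83.1 ± 22.2 in BCAS and 72.5 ± 20.8 in Sham (SD, n = 6 each), with an adjusted p of 1 over the 4 groups in edgeR.

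Among the other terminal synthases, those of prostaglandin E and the brain form for prostaglandin D were likewise singled out after their values were seen. Ptges3, whose product is both the cytosolic prostaglandin E synthase and a co-chaperone, had counts in all 24 libraries. It averaged 100 ± 25.8 CPM in WD-Exos, 94.7 ± 6.2 in ND-Exos, 122 ± 47.1 in BCAS and 132 ± 48.5 in Sham (SD, n = 6 each), with an adjusted p of 1 over the 4 groups in edgeR. Ptges2, a membrane-associated prostaglandin E synthase, had counts in 9 of 24 libraries and a mean of 1.73 CPM. Ptges, the inducible prostaglandin E synthase, had medians of 2.38 CPM in WD-Exos, 2.07 in ND-Exos, 1.6 in BCAS and 1.93 in Sham. Its highest value, 40.8 CPM, was in ND-Exos replicate 3. Ptgds, the synthase of prostaglandin D known from oligodendrocytes and meninges, had medians of 1.86 CPM in WD-Exos, 6.6 in ND-Exos, 0.164 in BCAS and 3.83 in Sham. Its highest value in each group, 504 CPM in WD-Exos replicate 6, 16.2 CPM in ND-Exos replicate 3, 118 CPM in BCAS replicate 1 and 841 CPM in Sham replicate 4, was in the library with the highest oligodendrocyte marker sum of that group, 4748, 3868, 1106 and 6865 CPM. Hpgds was at 365 CPM or more in every library.

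Genes whose levels followed each of the 9 most closely were sought among all tested genes with a mean of at least 20 CPM, by Pearson correlation of log2(CPM + 1) over the 24 libraries, which share groups and cell purity. Ptgs1 went most closely with Siglech (r = 0.79), a microglial lectin gene, then Trem2 (0.77) and Lat2 (0.76). These were 0.69, 0.77 and 0.78 without ND-Exos replicate 3. Alox5ap went with Ctss (0.88), the cathepsin S gene, and Rnase4 (0.82), at 0.85 and 0.77 without that library. Hpgds went with Ctsl (0.76), Septin2 (0.75) and P2ry12 (0.75), at 0.72, 0.76 and 0.71 without it. Tbxas1 went with the lysosomal genes Ctsd (0.72) and Psap (0.70). Ltc4s went with Calm2 (0.77), and for Alox5, Lta4h and Pla2g4a the highest correlations were 0.71 with Yars, 0.72 with Erh and 0.64 with Pds5a. Hpgd was at 0.70 with both Serbp1 and Exoc6, and at 0.64 and 0.57 without ND-Exos replicate 3. Each named gene was picked as among the highest of this wide search, so the selection itself raises r. How high r would be for unrelated genes in such a search was not tested.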

How the data were processed

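Per the labels' protocols, microglia were sorted by flow cytometry, and RNA was amplified by Smart-seq2. The authors deposited 1 table of estimated counts per Entrez identifier, not scaled between libraries; 76.8% of genes had whole values in every library, to within 1e-09. No source used here gives the aligner, counting tool, strand setting or genome build. Of 22064 identifiers, 6186 were blank throughout and left out, and 22002 found a symbol in RefSeq GRCm38.p6. Values were rounded and tested with edgeR 4.0.16 (R 4.3.3): filterByExpr with a minimum of 10 counts left 10219 genes, TMM factors were 0.936 to 1.175, and robust quasi-likelihood F tests used 1 fit of all 24 libraries with 4 group means and Benjamini-Hochberg adjustment over all tested genes at 0.05. Intervals are 95%, from the SE. Alternatives were RLE size factors, filters, limma 3.58.1 voom, DESeq2 1.42.0, a covariate, a replicate block, 12-library fits and leaving out each library. The genes, lists and naming rule were chosen with earlier results of these data known. The rule named all 10 genes, then, of the other pathway genes, those past the threshold or else the 3 with the smallest p over the 4 groups and the 6 with the highest level. Sequences are from RefSeq and lengths from GENCODE M21.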

Additional observations from a re-analysis of the deposited data

Results flagged for a closer look

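Of 64 sets of 6 libraries examined, 3 held a library whose gap to its nearest neighbour was large against the range of its group, by Dixon's criterion; chance alone flags about 1 in 20. For Ltc4s, ND-Exos replicate 3 was at 224 CPM, against 286 CPM in the next library, a gap of 0.711 of the range. This is the library with the lowest microglial and a raised oligodendrocyte marker sum. For Cotl1, BCAS replicate 1 was at 1005 CPM, against 579 CPM in the next, a gap of 0.747 of the range. For Dusp1, Sham replicate 4 was at 370 CPM, against 111 CPM in the next, a gap of 0.749 of the range; its oligodendrocyte marker sum, 6865 CPM, was the highest of all libraries.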

How the results depend on the processing

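The count of the 10 genes past the threshold was 0 in all 151 alternative counts. Of 1359 alternative values of single genes, 1313 kept their direction and their side of the threshold and 46 changed sign. Numbers of genes past the threshold over all genes are given in the order 4 groups, BCAS against Sham, ND-Exos against BCAS, WD-Exos against BCAS, WD-Exos against ND-Exos, ND-Exos against Sham and WD-Exos against Sham, for which edgeR gave 3, 0, 2, 0, 2, 11 and 0. DESeq2 gave 163, 193, 141, 109, 124, 219 and 172, and voom with library weights gave 58, 10, 1, 1, 4, 45 and 65; the cause was not tested. Without a filter on low counts the 4-group count was 30 and that of ND-Exos against Sham 4. With detected genes as a covariate the counts were 13 for the 4 groups, 1 for ND-Exos against BCAS and 19 for WD-Exos against Sham. Fits of 12 libraries gave 1 for WD-Exos against ND-Exos and 19 for ND-Exos against Sham. Leaving out 1 library gave 2 to 42 (the most without BCAS replicate 2) over the 4 groups, 0 to 32 (the same library) for BCAS against Sham, 1 to 3 for ND-Exos against BCAS, 2 to 5 for WD-Exos against ND-Exos, 0 to 29 (the most without ND-Exos replicate 3) for ND-Exos against Sham and 0 to 14 for WD-Exos against Sham.

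None of the changed signs was past the threshold. BCAS against Sham, Lta4h was -0.13 with the covariate and -0.02 with voom, and Ltc4s -0.06 with the covariate. ND-Exos against BCAS, Alox5ap was 0.08 with the covariate and Pla2g4a -0.01 with voom. WD-Exos against BCAS, Alox5ap, Ptgs1 and Tbxas1 were 0.05, 0.09 and 0.02 with the covariate, and Pla2g4a, at 0.00 in edgeR, was -0.05 with voom and with the replicate block. Leaving out 1 library moved BCAS against Sham from -0.13 to 0.04 for Hpgd and from -0.28 to 0.23 for Lta4h. It moved ND-Exos against BCAS from -0.18 to 0.04 for Alox5ap, -0.00 to 0.28 for Hpgds, -0.11 to 0.45 for Lta4h, -0.01 to 0.14 for Ltc4s and -0.04 to 0.23 for Pla2g4a, and WD-Exos against BCAS from -0.14 to 0.11 for Pla2g4a. For ND-Exos against Sham the ranges were -0.00 to 0.52 for Alox5, -0.05 to 0.35 for Lta4h and -0.17 to 0.05 for Ptgs1. For WD-Exos against ND-Exos they were -0.01 to 0.38 for Alox5, -0.11 to 0.04 for Hpgd and -0.23 to 0.04 for Pla2g4a, and for WD-Exos against Sham -0.02 to 0.18 for Tbxas1.

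The labels do not say whether replicate numbers pair the samples. Deviations of same-numbered libraries correlated at -0.093 to 0.067 over 36 pairs, and those of other-numbered libraries at -0.102 to 0.115 over 180 pairs. A pairing that left no shared deviation would not show in these values. With the replicate block, Lta4h in BCAS against Sham was -0.07, ND-Exos against Sham called 0 genes, and no other count moved by over 1.5 times. Without ND-Exos replicate 3, added after the data were seen, the ranges of WD-Exos and ND-Exos stood apart for 1 of the 9 genes, Ltc4s, against 0.93% of all genes, and for 0 of the 9 in the other 2 comparisons of ND-Exos. By counting error alone, the 0 counts of Ptgs2 allow up to 0.0189 CPM in BCAS and 0.0187 CPM in Sham. That limit does not cover other differences between libraries. Ptger2, Ptgdr and Tbxa2r each had counts in 1 of 24 libraries, at 20, 21.6 and 32.3 CPM, so levels could differ between libraries by more than counting error.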
